A study of Mus musculus with 4 samples.

Results

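The genes of the proteasome and of its activators were followed in whole mouse embryos at embryonic day 9.5 that lacked Cop1, the gene of a ubiquitin ligase, and in their controls. Members were all probe sets whose single annotated gene symbol begins with Psm followed by a letter from a to g and a digit. This gave 103 of the 45037 probe sets tested, for 49 of the 18193 named genes. The members were chosen by symbol and no measured value selected them, but the family was taken up with its differences already known, so the counts below are a description. A further probe set, which the annotation lists for several genes with a gene of the family among them, was left out by the rule. The name pattern also takes in 2 genes that encode no proteasome subunit. Psmc3ip encodes a protein of meiotic recombination, and Psme3ip1 encodes a protein that binds the activator subunit PSME3. They are given apart, which leaves 100 probe sets for 47 genes.

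Each group was 1 RNA pool. The null pool joined RNA of 6 embryos without Cop1 and the control pool RNA of 6 embryos that were +/+ or +/-, which the sample titles call wild-type. Each pool was divided into 2 portions, and each portion was hybridised to 1 Affymetrix array, so there were 4 arrays. The 2 arrays of a genotype are portions of the same RNA. All p-values therefore rest on the spread between portions and carry no replicate check of the genotype. In RNA of whole embryos, fewer cells of a type and less RNA per cell cannot be told apart.

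The proteasome degrades proteins that carry ubiquitin chains. Its core particle is a barrel of alpha rings, built from Psma products, around beta rings, built from Psmb products, and the proteolytic sites lie inside the beta rings. The regulatory particle caps the barrel: its Psmc products are ATPases that unfold the substrate and thread it in, and its Psmd products bind ubiquitin chains, remove them or hold the particle together. Activators encoded by Psme genes open the barrel without using ATP. When proteasome activity falls short, the transcription factor NRF1, the product of Nfe2l1, raises the transcription of proteasome genes in many cell types, and COP1 itself hands its substrates to the proteasome.

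The motif that NRF1 and its relative NRF2 bind, the antioxidant response element, has the core TGACNNNGC. It was searched for on both strands of the RefSeq promoter windows (GRCm38.p6, 250 bases before to 50 after the gene start), which exist for 39 of the 47 genes. These stretches are shown because they place the core in or close to the first 50 bases before the start of genes of different parts of the particle. Capitals mark the core, read 5′ to 3′ on the gene's strand. For Psme4 the core lies on the opposite strand.
Psmb5 (chr14:54617994-54618082, minus strand): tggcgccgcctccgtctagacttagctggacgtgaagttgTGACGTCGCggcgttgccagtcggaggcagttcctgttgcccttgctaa
Psmb6 (chr11:70525308-70525358, plus strand): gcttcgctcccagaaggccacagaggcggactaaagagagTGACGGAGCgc
Psmd9 (chr5:123228119-123228191, plus strand): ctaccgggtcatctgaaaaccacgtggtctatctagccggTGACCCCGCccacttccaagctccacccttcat
Psme4 (chr11:30771728-30771776, plus strand): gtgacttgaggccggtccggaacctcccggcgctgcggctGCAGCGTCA
The first base of the core lies 47 bases before the start of Psmb5, 31 before that of Psmd9, 9 before that of Psmb6 and 7 before that of Psme4. Psmc6 and Psmd12 hold a core farther away, 227 and 247 bases before the start. In all 6 of 39 genes held the core (15.4%), beside 14.0% of the 27025 genes with a promoter window. The CCAAT box, searched in the same way, was found in 14 of the 39 (35.9%), beside 41.1% of all, and in none of the 6 genes with the core. The median difference between pools was -0.32 log2 units for the 6 genes with the core and -0.24 for the 33 without it. The 6 ranged from -0.46 (Psmb6) to 0.07 (Psmc6), and the gap between the medians was not tested.

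The values are log2 expression values made with RMA, and every difference is the value of the null pool less that of the control pool. The median over all probe sets lay between 6.03 and 6.10 on the 4 arrays. Cop1 read 11.35 and 11.26 in the control portions and 9.67 and 9.77 in the null portions, a difference of -1.58 (limma, adjusted p = 0.000728). The log2 ratio of 3′ to 5′ probe sets, a measure of RNA integrity, was 0.14 to 0.19 for beta-actin and -0.06 to 0.00 for Gapdh on the 4 arrays, and the pools overlapped. The control probe sets for 18S ribosomal RNA were 1.12 to 1.66 log2 units higher on the null arrays, and their part in the results below was not tested.

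Across the family the null pool read slightly lower. With each gene represented by its probe set of highest mean, 44 of 47 genes had a lower mean in the null pool and 3 a higher one, with a median of -0.25 log2 units (1.19-fold). Over all 18193 genes the median was -0.02 and 54.1% read lower, and over the 2241 genes with a mean of at least 10 the median was -0.06 and 58.2% read lower. In 42 of the 47 genes both null arrays lay below both control arrays. This held for 39.3% of all genes and for 1177 of the 2241 with a mean of at least 10. The words rose and fell are kept for an adjusted p under 0.05 together with a fold of at least 1.5. By this rule 1 of the 47 genes fell, Psmd13, beside 8.06% of all genes, and 0 rose, beside 3.58%. Of the 2241 genes with a mean of at least 10, 111 fell and 108 rose. At an unadjusted p under 0.05 in the same limma fit 0 of the 47 read higher and 34 lower. The share of all genes at that unadjusted limit was not counted, so the 34 have no background beside them. With the adjusted p alone 21.8% of all genes read lower, and 588 of the 2241 with a mean of at least 10. Among the 47 members the count was 27, with adjusted p-values from 0.00281 to 0.0471. This count was 6 without control replicate 1, 6 without control replicate 2, 9 without null replicate 1 and 9 without null replicate 2. The number of genes that read lower was 44 with quantile normalization applied once more, 45 with arrays centred on their medians and 47 with arrays centred on the poly-A spikes. The spikes moved the median of all genes by -0.26, and since centring shifts every gene alike, the members' median stayed 0.22 log2 units below that of all genes by construction. With quantile normalization applied once more the gap was -0.16 log2 units.

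**Figure D1:**
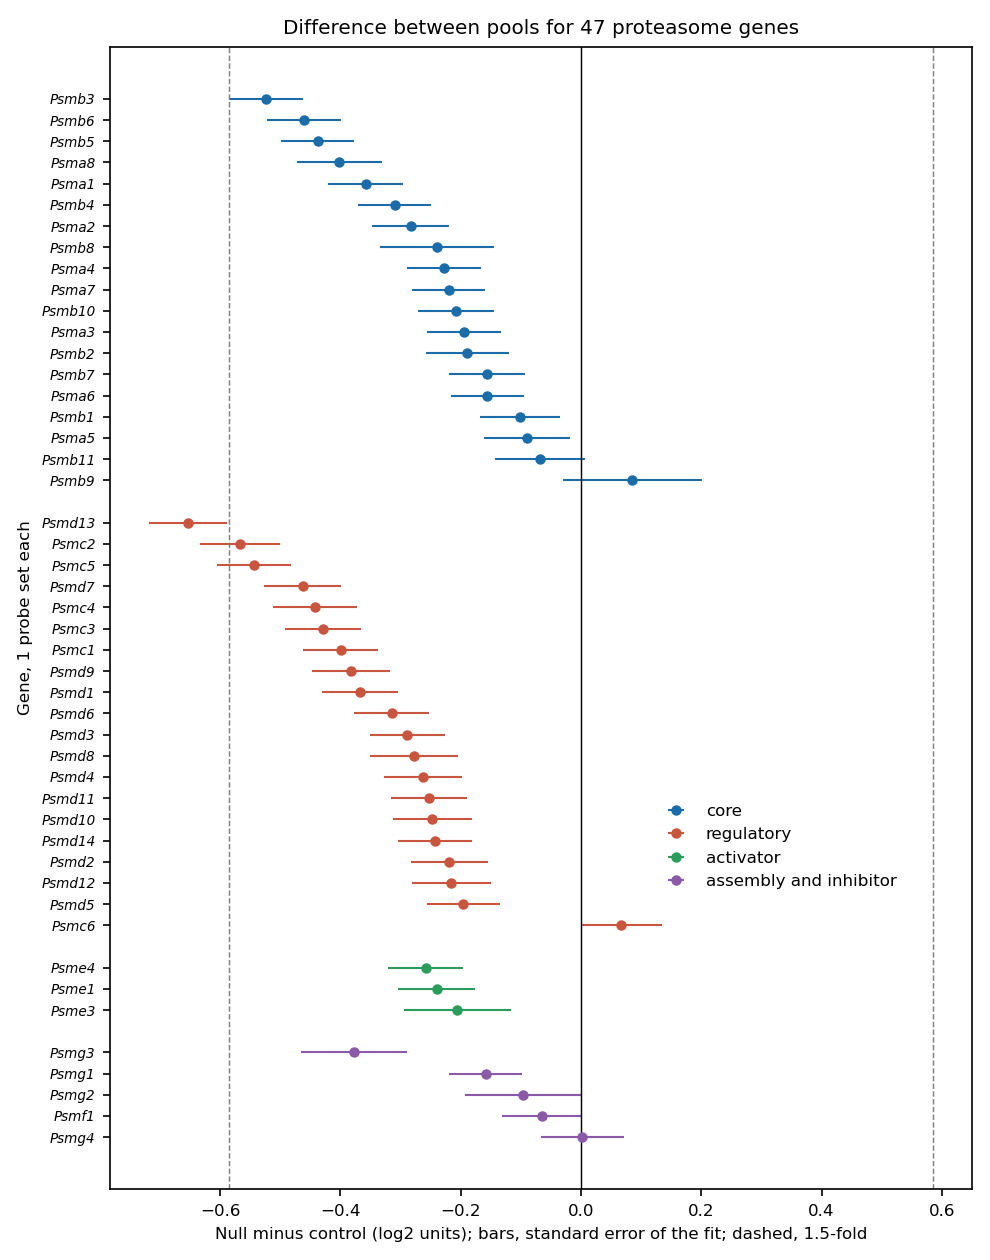
Null minus control in log2 units for 47 proteasome genes, 1 probe set each, with points for the estimate, bars for its standard error and dashed lines at 1.5-fold. 44 points lie left of 0, and Psmd13 alone passes the dashed line on that side.

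The alpha ring, whose subunits form the gate of the barrel, differed by small amounts. All 8 Psma genes read lower without overlap, beside 39.3% of all genes, and their median was -0.22. Psma1 read 12.14 and 12.13 in the control portions and 11.80 and 11.75 in the null portions. The groups did not overlap, and the difference of -0.36 (SE 0.06, limma, adjusted p = 0.0133) lay under the fold limit. Psma2 (-0.28), Psma4 (-0.23), Psma7 (-0.22), Psma3 (-0.20), Psma6 (-0.16) and Psma5 (-0.09) followed in order of size. Psma8, the subunit of male germ cells, read 4.89 and 4.97 against 4.49 and 4.57, low values on all 4 arrays, and differed by -0.40.

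The beta ring held the core genes of greatest difference. Psmb3, a subunit without a proteolytic site, read 11.58 and 11.61 in the control portions and 11.06 and 11.08 in the null portions. The pools stood apart by far more than the portions of either, and the difference was -0.52 (SE 0.06, 1.44-fold, limma, adjusted p = 0.00435). Its other probe set read -0.48. The 7 standard Psmb genes all read lower without overlap, beside 39.3% of all genes, and their median was -0.31. Psmb4 (-0.31), Psmb2 (-0.19) and Psmb1 (-0.10) lay between Psmb3 and 0.

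The catalytic beta subunits cut after different residues and did not differ equally. Psmb6, of the caspase-like site, read 11.94 and 11.97 in the control portions and 11.49 and 11.51 in the null portions, a difference of -0.46 (SE 0.06, adjusted p = 0.00619). Psmb5, of the chymotrypsin-like site that proteasome inhibitors block, read 11.90 and 11.92 against 11.48 and 11.46, a difference of -0.44 (SE 0.06, adjusted p = 0.00693). In both genes the null arrays lay well below the control arrays, under the fold limit. Psmb7, of the trypsin-like site, read 12.69 and 12.68 against 12.50 and 12.55. The groups did not overlap, but the difference of -0.16 (SE 0.06) missed the test (limma, adjusted p = 0.127).

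The immunoproteasome subunits replace the catalytic ones in immune cells and after interferon. Psmb10, which replaces Psmb7, read 7.42 and 7.48 in the control portions and 7.24 and 7.25 in the null portions, a difference of -0.21 (SE 0.06, adjusted p = 0.0649). Psmb8, which replaces Psmb5, read 5.10 and 4.89 against 4.80 and 4.71, a difference of -0.24 (SE 0.09, adjusted p = 0.122). Psmb9, which replaces Psmb6, read 5.43 and 5.13 against 5.40 and 5.33. Here the pools overlapped, and the difference was 0.09 (SE 0.12, adjusted p = 0.633), the highest of the core genes. It turned to -0.06 without control replicate 2 and to -0.17 with poly-A centring. Psmb11, of the thymus proteasome, read 3.78 and 3.74 against 3.76 and 3.63, with overlap. Of 4 genes of immune and thymus proteasomes, none passed the test in limma, and 1 of them had an unadjusted p under 0.05.

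Markers of immune cells were examined beside these subunits. Of 6 measured macrophage markers 2 fell, Cd68 by 0.74 and Lyz2 by 0.69, and 0 rose. The sum of the 6 on the linear scale was 579 and 642 in the control portions and 435 and 468 in the null portions. Of 5 lymphocyte markers 0 rose and 0 fell by limma, with 0 at an unadjusted p under 0.05, and their sums were 292 to 302 in the control pool and 299 to 305 in the null pool. RMA gives every probe set a value, so no marker is at 0. The part of these cells in the values of the immune subunits was not tested. Of 7 genes of class I peptide supply, which load the products of the immunoproteasome, 1 fell and 0 rose. Erap1, a peptide-trimming enzyme of the endoplasmic reticulum, read 5.08 and 5.42 against 4.18 and 4.60, and fell by 0.86. A dimmer probe set of Erap1 read -0.40 without a call.

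**Figure D2:**
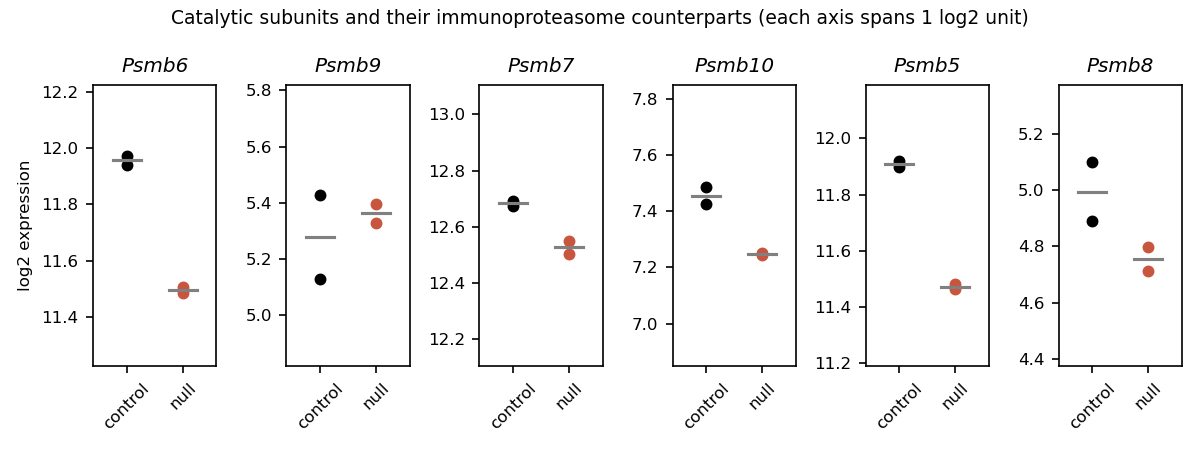
Log2 expression of the catalytic subunit genes Psmb6, Psmb7 and Psmb5, each followed by its immunoproteasome counterpart, with a point for each array, a grey line at the pool mean and an axis that spans 1 log2 unit. The null arrays lie below the control arrays in all but Psmb9, where the pools overlap.

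The regulatory particle differed more than the core in its median, at -0.30 over 20 genes against -0.22 over 19, and no test of that difference was made. In 19 of the 20 both null arrays lay below both control arrays. This held for 39.3% of all genes and for 1177 of the 2241 with a mean of at least 10. An adjusted p under 0.05 in that direction was found for 16 of the 20, beside 21.8% of all genes and 588 of the 2241. Psmd13, a scaffold subunit of the lid, read 10.51 and 10.52 in the control portions and 9.83 and 9.90 in the null portions. It fell by 0.65 log2 units (SE 0.06, 1.57-fold, limma, adjusted p = 0.00281). Psmd7, the partner of the deubiquitinase Psmd14, followed among the Psmd genes at -0.46, while Psmd14 itself read -0.24.

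The ATPases formed the group of greatest median difference, -0.44 over 6 genes. Psmc2 read 11.93 and 11.94 in the control portions and 11.41 and 11.33 in the null portions by its brightest probe set, a difference of -0.57 (SE 0.07). Another of its probe sets, at 11.87 and 11.88 against 11.26 and 11.28, fell by 0.61 (SE 0.06, 1.53-fold, limma, adjusted p = 0.00284), although it lay under the fold limit at -0.57 with quantile normalization applied once more. These bright probe sets thus gave nearly the same difference, on either side of the limit. The third probe set of Psmc2, at low values, read 0.22 with overlap.

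Psmc4 also passed the limits by a second probe set. It read 11.13 and 11.12 in the control portions and 10.46 and 10.47 in the null portions, and fell by 0.66 (SE 0.06, 1.58-fold, limma, adjusted p = 0.00235). The brighter probe set of Psmc4 gave -0.44 (SE 0.07). Psmc5 read -0.54, Psmc3 -0.43 and Psmc1 -0.40, each with an adjusted p under 0.05 and none past the fold limit.

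Psmc6 was the exception among the ATPases, and its probe sets disagreed. The brightest read 11.87 and 11.82 in the control portions and 11.95 and 11.88 in the null portions, a difference of 0.07 (SE 0.07, adjusted p = 0.514) that turned to -0.19 with poly-A centring. The second read 10.22 and 10.42 against 9.70 and 9.61, and fell by 0.66 (SE 0.09, adjusted p = 0.00731). The third read 8.16 and 8.32 against 7.61 and 7.36, and fell by 0.75 (SE 0.11, adjusted p = 0.00888). Both calls changed when an array was left out. Without control replicate 2 the second lay under the fold limit at -0.56, and the third missed the test at -0.67 (adjusted p = 0.0617). Without null replicate 2 the second also missed it, at -0.62 (adjusted p = 0.0576).

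By their brightest probe sets the other Psmd genes read lower by smaller amounts, and none of these probe sets passed the fold limit. Psmd1, a large scaffold of the base, differed by -0.37, Psmd6 by -0.31, Psmd3 by -0.29, Psmd8 by -0.28 and Psmd11 by -0.25. Psmd4, a receptor of ubiquitin chains, differed by -0.26, and Psmd2, which docks shuttle proteins, by -0.22. Psmd12 differed by -0.22. Of the chaperones that assemble the base and leave it, Psmd9 read -0.38, Psmd10, also called gankyrin, -0.25, and Psmd5 -0.20.

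The activators were lower by their brightest probe sets, and 0 of 3 genes passed both limits. Psme1, the alpha subunit of the interferon-induced activator, read 10.25 and 10.23 in the control portions and 10.03 and 9.97 in the null portions, a difference of -0.24 (SE 0.06, limma, adjusted p = 0.0443). Psme3, whose product forms the nuclear activator, read 9.30 and 9.30 against 8.99 and 9.20, a difference of -0.21 (SE 0.09, adjusted p = 0.152). The groups of Psme3 stood apart, but the null arrays lay farther from each other than the nearer of them lay from the controls. Its second probe set read 9.48 and 9.33 against 8.80 and 8.82 and fell by 0.59 (SE 0.08, 1.51-fold, adjusted p = 0.00611), a value so close to the fold limit that it passed under it without control replicate 1 (-0.52), without null replicate 1 and with quantile normalization applied once more (-0.53). Psme4, the large nuclear activator that acts in chromatin and spermatogenesis, read 11.42 and 11.38 against 11.16 and 11.13, a difference of -0.26 (SE 0.06, adjusted p = 0.0343).

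The genes that assemble or restrain the particle showed the smallest median, -0.10 over 5 genes. Psmg3, a chaperone of the alpha ring, read 9.57 and 9.55 in the control portions and 9.08 and 9.28 in the null portions, a difference of -0.38 (SE 0.09, adjusted p = 0.0307). Psmg4, which acts together with it, read 9.42 and 9.34 in the control pool and 9.42 and 9.34 in the null pool. Psmg4 therefore did not separate the pools, and its difference of 0.00 turned to -0.06 with median centring and to -0.25 with poly-A centring. Psmg1 differed by -0.16 and Psmg2, with overlap, by -0.10. Without null replicate 2 Psmg2 stood at 0.00.

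Psmf1, the gene of the inhibitor protein PI31, gave different readings by probe set. The brightest read 9.35 and 9.30 in the control portions and 9.23 and 9.29 in the null portions, a difference of -0.07 (SE 0.07, adjusted p = 0.513). The other 3 all fell. They read 8.06 and 8.11 against 7.33 and 7.39, 7.32 and 7.46 against 6.70 and 6.72, and 6.75 and 6.71 against 6.06 and 5.90. Their differences were -0.73 (SE 0.06), -0.68 (SE 0.07) and -0.75 (SE 0.08), with adjusted p-values of 0.00215, 0.0036 and 0.00334 in limma. Psmf1 was the only gene of the 47 with 3 called probe sets.

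Over all 103 probe sets of the rule 7 rose and 9 fell, 6.80% and 8.74% of them, beside 6.76% and 6.96% of all 45037 probe sets tested, so the share of calls was near that of the array. With the adjusted p alone 46 of the 103 read lower, beside 17.6% of all probe sets. With poly-A centring 5 rose and 33 fell. The calls were distributed by level. Of the 60 proteasome probe sets with a mean of at least 8, a bound chosen after the values were seen, 0 rose (limma, with 0 also at an unadjusted p under 0.05) and 5 fell, and 58 read lower. Among all probe sets of the array at that level 6.58% rose, 9.63% fell and 59.0% read lower. Of the 40 with a mean under 8, 7 rose and 4 fell, and 19 read lower. Among all probe sets under that level 6.82% rose, 5.99% fell and 44.8% read lower.

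**Figure D3:**
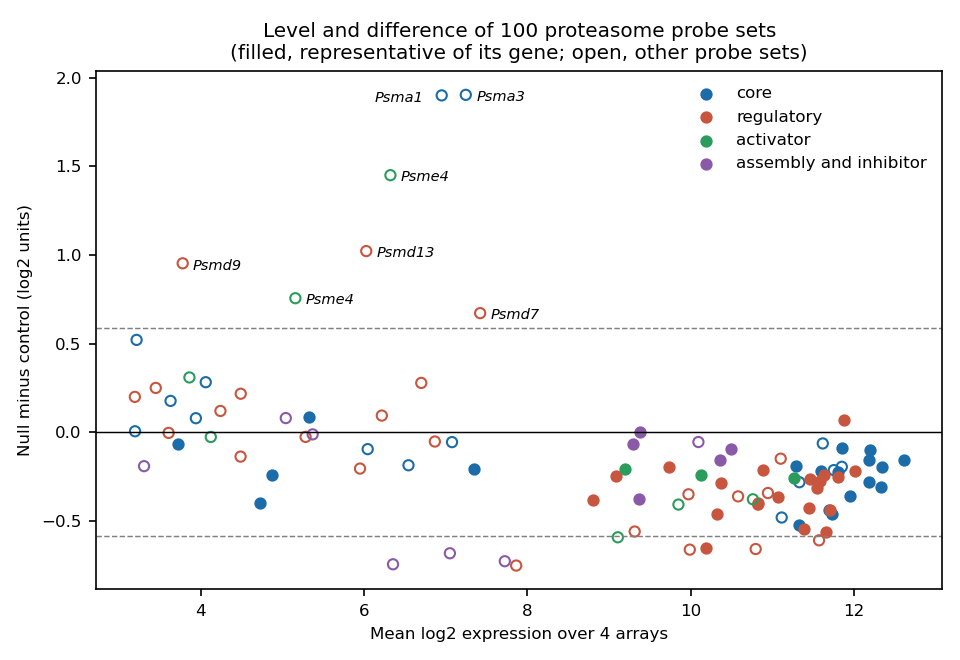
Null minus control in log2 units against the mean log2 expression over the 4 arrays for 100 proteasome probe sets, filled where the probe set represents its gene and open otherwise, with dashed lines at 1.5-fold. All 7 named points above the upper line are open and have a mean under 8.

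The 7 rises belonged to 6 genes whose brightest probe set read lower, and in each to a probe set other than the brightest. With the dimmest 40% of the array's probe sets left out, 5 of the 7 rises were counted. Psma1 gave the clearest case: its rising probe set read 5.99 and 6.01 in the control portions and 7.88 and 7.93 in the null portions. The rise was 1.90 log2 units (SE 0.06, 3.73-fold, limma, adjusted p = 0.000549), while the brightest probe set of the gene differed by -0.36. The 2 remaining probe sets of Psma1 read 0.52 and 0.28, at low levels and without a call. In Psma3 the second probe set read 6.62 and 5.97 in the control portions and 8.07 and 8.32 in the null portions. The control portions of Psma3 differed widely, and the rise of 1.90 had an SE of 0.23 (adjusted p = 0.00484).

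Psmd13 was the only gene with a call in both directions. The probe set that rose read 5.57 and 5.46 in the control portions and 6.42 and 6.65 in the null portions, a rise of 1.02 (SE 0.10, adjusted p = 0.00283) against the fall of 0.65 in the brightest. The remaining 2 read -0.56 and, with overlap, -0.05. In Psmd7 the rising probe set read 7.10 and 7.07 against 7.70 and 7.82, a rise of 0.67 (SE 0.07) that read 0.42 without a call with poly-A centring. In Psmd9 it read 3.31 and 3.30 against 4.23 and 4.28, a rise of 0.95 (SE 0.06) at the low end of the scale.

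Psme4, with 6 probe sets, had 2 that rose and 3 bright ones that read lower. The first rise went from 5.29 and 5.91 in the control portions to 7.01 and 7.09 in the null portions, 1.45 log2 units (SE 0.21, adjusted p = 0.00767). It missed the test at 1.49 without null replicate 1 (adjusted p = 0.0551) and at 1.41 without null replicate 2 (adjusted p = 0.0643). The second went from 4.84 and 4.73 to 5.51 and 5.56, a rise of 0.76 (SE 0.07, adjusted p = 0.00255), and read 0.50 with poly-A centring (adjusted p = 0.0509). The 3 bright probe sets of Psme4 differed by -0.26, -0.38 and -0.41. Where these probe sets lie on their transcripts is not given in the sources used here. Of the 26 genes with several probe sets, 16 had differences of both signs.

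**Figure D4:**
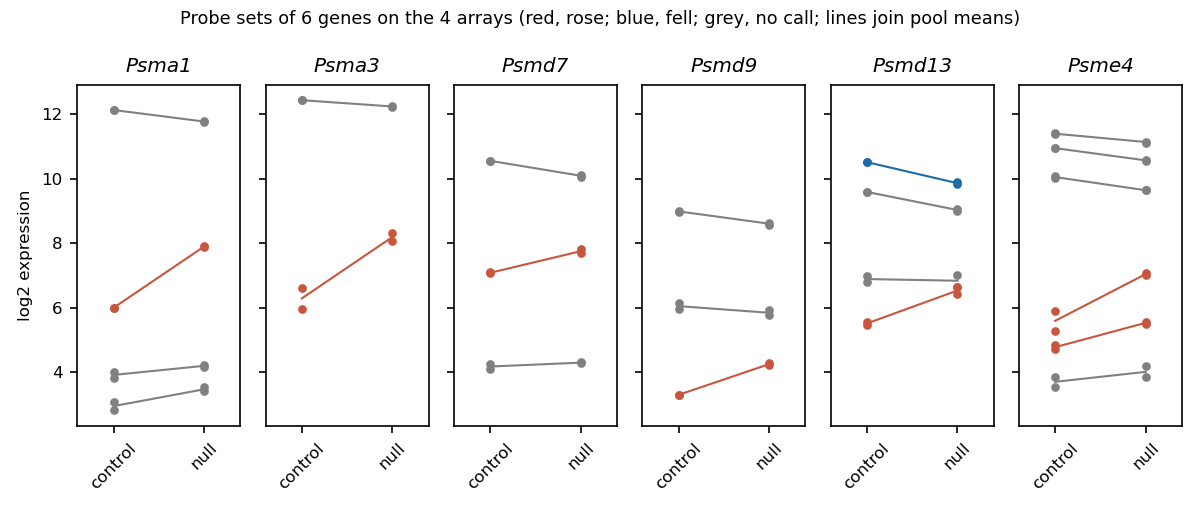
Log2 expression of every probe set of Psma1, Psma3, Psmd7, Psmd9, Psmd13 and Psme4 on the 4 arrays, with a point for each array and a line between pool means, red for a rise, blue for a fall and grey for no call. The red lines rise from low control values, between 3.30 and 7.09 on average, while the brightest line of each gene slopes down.

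Genes around the proteasome gave mixed readings. Of 9 measured partners of the particle 1 fell and 0 rose, with a median of -0.24. Akirin1, a nuclear protein gene of the family whose other member, Akirin2, takes part in nuclear import of proteasomes, fell by 0.93, and Akirin2 read 0.04. Pomp, the chaperone that matures the core, read 11.68 and 11.66 in the control portions and 11.42 and 11.43 in the null portions, a difference of -0.24 (SE 0.06, adjusted p = 0.0378). Of 10 genes of ubiquitin shuttles and the p97 unfoldase 0 passed both limits in limma. At an unadjusted p under 0.05, 4 read lower and 1 higher. The unfoldase gene Vcp read -0.26 and its cofactor genes Nploc4 and Ufd1 -0.40 and -0.38. Faf2 and Faf1, whose products bind p97, read -0.46 and 0.37, and the shuttle gene Rad23b read 0.10. The only gene measured here for ubiquitin and its activation, the ubiquitin-activating enzyme gene Uba6, read -0.14.

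The list of factors that control proteasome genes held 2 rises and 0 falls among 7 members, with a median of 0.28. Nfe2l1, which encodes NRF1, read 9.21 and 9.14 in the control portions and 9.37 and 9.21 in the null portions. The pools touched, and its difference of 0.12 (SE 0.08, adjusted p = 0.359) turned to -0.14 with poly-A centring. Nfe2l2, which encodes NRF2, read 8.98 and 9.13 against 9.81 and 9.88 and rose by 0.79 (SE 0.08, 1.73-fold, adjusted p = 0.00301), a value that fell under the fold limit with poly-A centring (0.54). A dimmer probe set of Nfe2l2 read 0.42 without a call. Maff, which encodes a small partner of NRF1 and NRF2, rose by 1.16 (SE 0.10). Keap1, the adaptor through which NRF2 is degraded, read -0.29 without a call.

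The 2 genes that share only the name pattern read lower too. Psmc3ip differed by -0.40 in both of its probe sets (SE 0.07 and 0.06), and Psme3ip1 by -0.21 (SE 0.06). Among markers of cell types in the embryo, 2 of 5 neural tube genes, 2 of 6 yolk sac endoderm genes and 1 of 6 primitive red cell genes fell, 2 of 6 endothelial genes rose, and of 6 heart muscle genes 0 passed the limits, with 2 at an unadjusted p under 0.05. Of all genes 8.06% fell and 3.58% rose. On the linear scale the summed neural tube markers were 4463 to 4506 in the control pool and 3545 to 3673 in the null pool. The yolk sac endoderm sums were 4545 to 4713 and 2429 to 2451, and the endothelial ones 2040 to 2096 and 2666 to 2668. Those of primitive red cells were 66961.8 to 67012.7 and 64165.2 to 64687.5, and those of heart muscle 5717 to 5810 and 5305 to 5316. The part of cell composition in the members' differences was not tested.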

How the data were processed

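The authors deposited 1 table of log2 expression values for 4 arrays, which the submitters' processing notes trace to RMA and affy. The sources used here give no version, probe mapping or genome build. RMA gives the arrays a common distribution of intensities, so a change of total RNA leaves no trace. With arrays it is their number, not a read depth, that bounds the precision of a pool's values. As each genotype was 1 pool, the number of arrays does not bear on the spread between pools.

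The 64 Affymetrix control probe sets were kept out of the tests. Of 45037 probe sets tested, the platform's annotation lists 34945 with 1 gene and 932 with several, which were not named, and does not list 9160. All 49 member symbols matched RefSeq (GRCm38.p6), which supplied the promoter sequences. The probe set of highest mean stood for its gene. The test was that of limma 3.58.1 under R 4.3.3 (lmFit and eBayes, genotype as the only term, 2 residual degrees of freedom), adjusted by Benjamini-Hochberg over all 45037 probe sets. SE is that of the moderated fit.

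The members and gene lists were chosen with earlier results of these data known. Values on each array are given for member genes with a called probe set, the extremes of each class, catalytic and immunoproteasome subunits and the 3 activator genes among the members. Data were simulated for this comparison of 45037 probe sets, with noise from the spread between portions. The call was made for 58% of 50 probe sets with a 1.5-fold change, for 100% of those with a 2-fold change, and for 5 without any. A true 1.5-fold change lies at the fold limit itself, so many such changes miss the call whatever the noise. Far fewer probe sets were changed than were called in the data, which makes the adjustment of p-values stricter in the simulation. Arrays were treated as unpaired. Deviations of same-numbered arrays correlated at 0.06 across probe sets, which cannot settle whether they were handled together. The promoter motifs TGACNNNGC and CCAAT were counted on both strands.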

Additional observations from a re-analysis of the deposited data

Results flagged for a closer look

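The control probe sets for 18S ribosomal RNA, which were outside all tests, read higher on both null arrays than on both control arrays. The 3′ probe set read 11.79 and 11.81 in the control portions and 13.03 and 13.12 in the null portions, a difference of 1.27 log2 units. The 5′ probe set differed by 1.12 and the middle one by 1.66. Their part in the differences of the proteasome genes was not tested.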

How the results depend on the processing

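The counts of 7 rises and 9 falls over the 103 probe sets stayed within 1.5 times of these under most alternatives. Exceptions were 33 falls with poly-A spike centring and 46 falls with no fold limit. Leaving out 1 array gave 6 to 8 rises and 7 to 9 falls, with a lone array assumed to vary like the other group. The count of 27 genes lower by adjusted p alone, added after the data were seen, was 6 to 9 with 1 array left out and 16 with the replicate number as a block. The block left the 7 rises and 9 falls unchanged in number. The labels name no shared litter or day behind a replicate number. Of 16 called probe sets 9 kept their call in every alternative run. Median differences of core, regulatory, activator and assembly and inhibitor genes were -0.22, -0.30, -0.24 and -0.10. They were -0.18, -0.26, -0.20 and -0.07 with quantile normalization applied once more, -0.28, -0.37, -0.30 and -0.16 with median centring, and -0.48, -0.56, -0.50 and -0.35 with poly-A spikes. With the mean over a gene's probe sets they were -0.19, -0.24, -0.24 and -0.15, and with the probe set of smallest spread -0.21, -0.30, -0.38 and -0.056. The regulatory median was -0.34 without _x_at and _s_at probe sets and -0.31 with Psmc3ip. Leaving out 1 array gave -0.23 to -0.21 for core, -0.33 to -0.29 for regulatory, -0.27 to -0.23 for activator and -0.16 to -0.086 for assembly and inhibitor genes. Signs of differences near 0 turned in uncalled genes. Poly-A spikes gave -0.14 for Nfe2l1, -0.25 for Psmg4, -0.17 for Psmb9 and -0.19 for Psmc6, and median centring gave -0.061 for Psmg4. With 1 array left out Psmg4 read -0.036 to 0.041, Psmb9 -0.064 to 0.24 and Psmg2 -0.19 to 0.002. The cause of these changes was not tested. The poly-A spike medians of the control portions differed by 0.26 log2 units from each other, as much as the shift they gave.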
